A study of Mus musculus with 2 samples.

Results

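The cells described here are 120 cells of mouse tongue epithelium, named as differentiated keratinocytes, that were picked by their transcripts for Crabp2, Hsd17b2, Tmem35a, Cpxm2 and Pou3f1. They were drawn from 4545 cell barcodes. A cell was eligible when it had at least 500 genes, at least 5000 UMIs (unique molecular identifiers, one per captured transcript), under 10% mitochondrial UMIs, and fewer than 10 UMIs per 10000 over the hemidesmosome genes Col17a1, Itga6 and Itgb4, which mark keratinocytes attached to the basement membrane. Of 2484 eligible cells, the 120 with the most UMIs over the 5 selecting genes per 10000 UMIs became members, 82 from the ZT12 library and 38 from the ZT0 library. The lowest member had 6.991 such UMIs per 10000 and the highest cell left out had 6.986, so the boundary falls within a continuous range. Within 25% of it lay 46 members and 78 other eligible cells.

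Both libraries came from tongue epithelium of male mice of the strain the labels spell B57BL/6, aged 8 to 12 weeks, with no genotype or treatment named. One was taken at ZT12 and the other at ZT0 (Zeitgeber time, by convention lights off and lights on). The epithelium was dissociated with TrypLE, live cells were sorted by 7-AAD exclusion, and 10x Genomics 3' libraries were made. The study asked how tongue cell populations differ between the 2 times. There was 1 library per time, and how many mice contributed to each was not stated in the labels. No test between times or between cells is therefore made, and every interval covers counting error only. Because the 5 genes chose the members, comparisons of members with other cells are descriptions.

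Tongue epithelium is a stratified lining in which basal cells divide, leave the basement membrane, and mature as they move to the surface. Keratinocytes above the basal layer of non-keratinised oral mucosa make the keratin pair KRT4 and KRT13, while cornifying cells assemble an insoluble envelope from small proline-rich proteins and similar precursors, cross-linked by transglutaminases. CRABP2 carries retinoic acid to its nuclear receptors, which are known to govern how keratinocytes mature. HSD17B2 oxidises oestradiol and testosterone to less active steroids, TMEM35A is a chaperone of nicotinic acetylcholine receptors, CPXM2 belongs to the carboxypeptidase family, and POU3F1 (also called OCT6) is a POU-domain transcription factor of suprabasal skin.

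The ZT12 library held 2819 barcodes with 67901140 UMIs and the ZT0 library 1726 barcodes with 49826740 UMIs. Only 2 barcode sequences occurred in both libraries, and 0 of these belonged to a member. Members were deeply sampled, with a median of 43873 UMIs and 5704 genes at ZT12, against 28328 UMIs and 5023 genes in the other eligible cells. At ZT0 the medians were 37865 UMIs in members and 34375 UMIs in the others. Members made up 5.28% of eligible ZT12 cells (exact 95% interval 4.22 to 6.51) and 4.08% of eligible ZT0 cells (2.90 to 5.56). The ratio of these shares was 1.29 (0.870 to 1.95), and 2.997 when Crabp2 was left out of the selecting value, which gave 100 members at ZT12 and 20 at ZT0.

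Crabp2 carried most of the selection. It gave 64.6% of the selecting UMIs in members, Cpxm2 gave 17.0%, and Hsd17b2, Pou3f1 and Tmem35a the rest. All 120 members had a Crabp2 UMI, 113 had Cpxm2, 86 had Hsd17b2, 81 had Pou3f1 and 75 had Tmem35a. All 5 genes were found together in 38 members, 4 genes in 47, 3 genes in 27 and 2 genes in 8. Crabp2 was the leading gene of 64 ZT12 and 35 ZT0 members, Cpxm2 of 12 and 2, Hsd17b2 of 4 and 0, and Pou3f1 of 2 and 1.

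Crabp2 (chromosome 3, 87948666 to 87953376, mm10) ran at 1.70, 5.28 and 22.4 UMIs per 10000 in the lowest, median and highest ZT12 member. Summed over cells it stood at 628 CPM (UMIs scaled to a total of 1000000) in ZT12 members, 46.9 CPM in other eligible ZT12 cells and 5.89 CPM in ZT12 cells rich in hemidesmosome transcripts, and at 744 CPM in ZT0 members against 34.2 CPM in other ZT0 cells. Hsd17b2 (chromosome 8, 117701904 to 117759027) was at 112 CPM in ZT12 members and 15.9 CPM in the others, and at 58.8 and 9.78 CPM in the same groups at ZT0. The 2 genes of the name were thus not absent outside the members. Of the other eligible ZT12 cells, 34.7% had a Crabp2 UMI and 17.3% an Hsd17b2 UMI. Cpxm2 (chromosome 7, 132032687 to 132154739) reached 204 CPM in ZT12 members and 60.1 CPM in the others, with 115 and 50.6 CPM at ZT0. Pou3f1 (chromosome 4, 124656807 to 124660655) had 53.4 and 8.02 CPM at ZT12, and 58.8 and 7.92 CPM at ZT0. Tmem35a (chromosome X, 134295225 to 134305969) had 46.9 and 7.86 CPM at ZT12, and 26.9 and 7.01 CPM at ZT0.

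**Figure D1:**
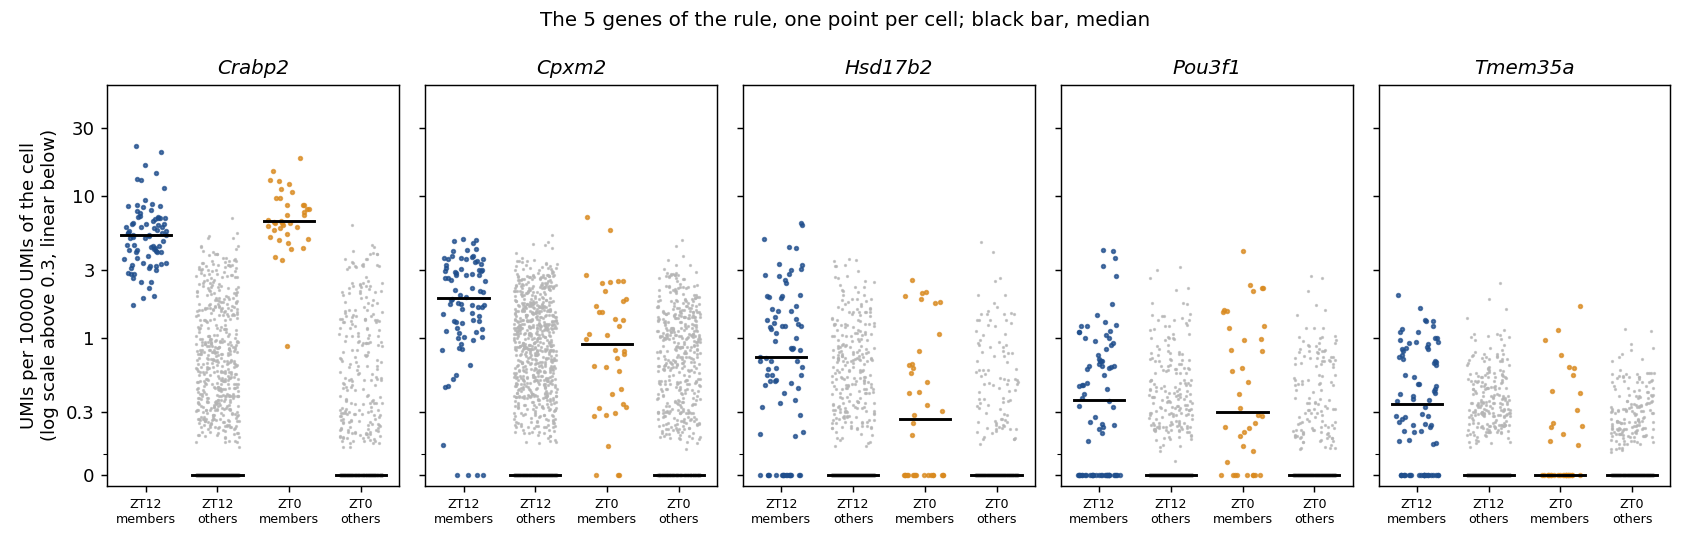
UMIs of each selecting gene per 10000 UMIs of the cell (logarithmic above 0.3, linear below), one point per eligible cell and a black bar at the median, for members and other eligible cells of ZT12 and then ZT0. Crabp2 is above 0 in all 120 members, while a part of the members sits at 0 for each of the other 4 genes.

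S100a8, a calcium-binding alarmin listed as a further marker of these cells, was not a shared feature of them. It was found in 3 of 82 ZT12 members, with 327 of its 329 UMIs in 1 cell, and in 1 of 38 ZT0 members with 2 UMIs. Its partner S100a9 likewise had 239 of 242 ZT12 member UMIs in 1 cell. Of 3 measured genes of the neutrophil list, 2 were higher in ZT12 members and 1 lower, and the 2 were S100a8 and S100a9. Immune cell transcripts were nearly lacking. Over the 10 genes of the immune list, members had 1.62 summed CPM at ZT12 and the other eligible cells 70.4 CPM, with 6.72 CPM in members and 305 CPM in the others at ZT0.

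Most members carried the mucosal keratin pair. Krt4 stood at 41356 CPM in ZT12 members, 14958 CPM in other eligible cells and 932 CPM in hemidesmosome-high cells, a ratio of members to others of 2.76 (2.75 to 2.78). At ZT0 it was 4.04 times higher in members than in the others. Single ZT12 members ran at 30.5, 400.1 and 813 Krt4 UMIs per 10000 (lowest, median, highest), whereas the median of the other ZT12 cells was 64.7, so the ranges overlap and the medians lie far apart. Krt13 was at 55137 CPM in ZT12 members and 32042 CPM in the others. The basal keratin Krt5 went the other way, at 237 CPM in ZT12 members and 1367 CPM in the others, 5.77 times lower (5.40 to 6.17), and at 5536 CPM in hemidesmosome-high cells.

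A minority had little of these keratins. With Krt4 and Krt13 summed, 106 members had at least 100 UMIs per 10000, a limit set after the values were seen, and 14 had fewer. Of these 14 Krt4/Krt13-poor members 2 came from ZT12 (2.44% of its members, 0.297 to 8.53) and 12 from ZT0 (31.6%, 17.5 to 48.7). The 12 ZT0 cells had 0.959 to 63.9 Krt4 and Krt13 UMIs per 10000 with a median of 2.38, and the 26 rich ZT0 members 930 to 2010. Krt14, a basal and hair-follicle keratin, ran from 182 to 463 per 10000 in the poor ZT0 cells and from 0 to 17.2 in the rich ones. The 2 kinds of ZT0 member thus did not overlap on Krt14, while on Krt4 and Krt13 they were parted by the limit itself. Counting only Krt4/Krt13-rich members, the share of eligible cells was 5.15% at ZT12 (4.11 to 6.37) and 2.79% at ZT0 (1.83 to 4.07), a ratio of 1.85 (1.17 to 2.99).

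**Figure D2:**
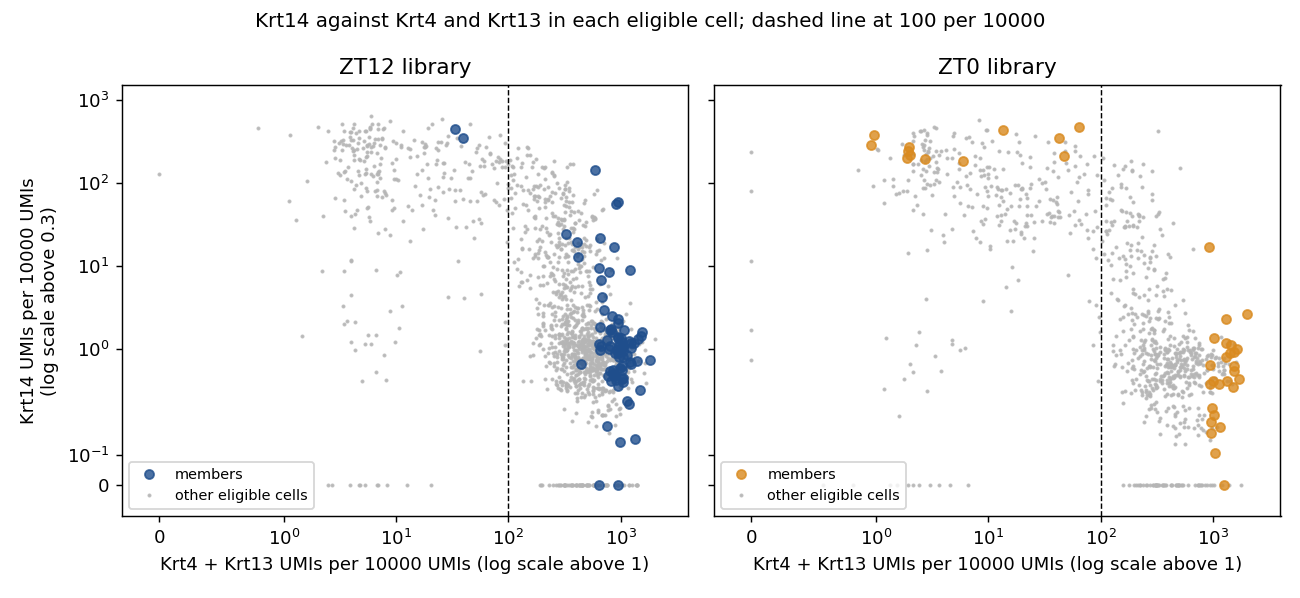
Krt14 against Krt4 plus Krt13, both in UMIs per 10000 (logarithmic axes, linear near 0), for each eligible cell of ZT12 (left) and ZT0 (right), with members as large points and a dashed line at 100. At ZT12 2 of 82 members lie left of the line, and at ZT0 12 of 38 do, all of them with Krt14 of at least 182 per 10000.

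Against the other eligible cells of ZT12, the 5 leading higher genes were Crct1, Mal, Cnfn, Asprv1 and Sprr1a, and the 5 leading lower ones Tchh, Dcn, Krt36, Hpgd and Id3. A gene was counted when its mean CPM over the 2 groups was at least 50, its CPM plus 1 differed at least 2-fold and the 95% interval of its ratio left out 1. Of 2633 genes, 84 were higher in members (3.19%) and 62 lower (2.35%). Scaling by TMM, which sets the bulk of genes level and moves the median log2 ratio of all genes from -0.17 to 0.00, gave 121 higher and 41 lower. The 84 became 28 when Crabp2 was left out of the selecting value, 45 without the top 5% of cells by UMIs and 53 with 240 members. The ZT0 library had 176 higher (6.7% of 2625 genes) and 152 lower (5.79%), or 268 and 93 under TMM and 65 and 79 without Crabp2 in the selecting value. The 84 genes were all higher in ZT0 members too, and 59 of the 62 were lower there, with 74 and 41 past the same limits.

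Of the 5 leading higher genes, Crct1, Cnfn and Sprr1a belong to the cornified envelope list. Crct1, a cysteine-rich gene of the epidermal differentiation complex, was at 327 CPM in ZT12 members and 3.89 CPM in the other ZT12 cells, a ratio of 84.1 (71.6 to 99.3), and at 409 and 4.24 CPM at ZT0. Cornifelin, Cnfn, was at 520.3 and 44.1 CPM (11.8 times, 11.1 to 12.6), and the small proline-rich gene Sprr1a at 477 and 67.1 CPM (7.11 times, 6.70 to 7.54). Asprv1, the protease that processes filaggrin in skin, was at 359 and 45.1 CPM. Per cell the groups overlapped widely. Crct1 ran at 0, 0 and 41.7 UMIs per 10000 in the lowest, median and highest ZT12 member, with a highest value of 11.5 in the other cells, and Cnfn at 0, 0.549 and 73.9 in members, with a median of 0 and a highest value of 26.3 in the others. Asprv1 ran at 0, 1.73 and 58.8 per 10000 in members, with a median of 0 and a highest value of 13.7 in the others. All 4 genes were thus several times higher in members in both libraries, although each was also found in other cells.

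The other leading genes had a range of roles. Mal, a proteolipid of apical membrane traffic and second by ratio, was at 100.1 CPM in ZT12 members and 5.84 CPM in the others (17.1 times, 14.6 to 20.2). The lipoxygenase Alox12b, needed for the skin lipid barrier, was at 122 and 26.9 CPM, and the simple-epithelial keratin Krt7 at 99.5 and 22.6 CPM. Other keratins of simple epithelia went the opposite way, with Krt8 at 0.539 and 12.6 CPM and Krt18 at 0 UMIs in members and 13.5 CPM in the others. Adenosine deaminase, Ada, had 169 and 40.3 CPM, and tissue factor, F3, the starter of blood clotting, had 325 and 89.4 CPM. The kallikrein-related protease Klk10 (318 and 95.1 CPM), the serpin Serpinb3a (1598 and 489 CPM), the tight-junction claudin Cldn4 (137 and 41.9 CPM), the haem-synthesis enzyme Alad (91.4 and 26.6 CPM), the tubulin Tubb2b (81.2 and 25.05 CPM) and Fam57a (468 and 127 CPM) completed the 15 leading genes. F3 ran at 0, 2.75 and 15.6 UMIs per 10000 in the lowest, median and highest ZT12 member and at 0, 0.359 and 12.3 in the other ZT12 cells, and Serpinb3a at 0, 7.74 and 80.1 in members and 0, 0 and 89.8 in the others. Medians parted while the highest cells of either group were alike. All 15 had ratios above 3 at ZT12 and were higher in members at ZT0 as well.

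These genes differed in how widely the members shared them. The 10 ZT12 members with the most UMIs of each gene held 91.3% of the Crct1 UMIs, 86.5% of Mal, 82.7% of Cnfn and 78.6% of Sprr1a, but 37.0% of F3 and 35.8% of Fam57a. The 10 ZT12 members richest in Crct1, Cnfn, Sprr1a and Sprr3 together, taken after their values were seen, had 2085 CPM of Crct1, 2914 CPM of Cnfn and 2745 CPM of Sprr1a. The other 72 ZT12 members had 57.5, 153.7 and 129.4 CPM of the same genes, still above the other eligible cells. By the shares given first, most Crct1, Cnfn and Sprr1a transcripts lay in a small number of members. Krt4 was alike in the 10 and the 72 cells, at 49002 and 40185 CPM. Leaving these 10 cells out lowered the number of higher genes from 84 to 55, and the log2 ratios of Crct1, Cnfn, Mal and Sprr1a to 3.58, 1.78, 2.1 and 0.94. In part this fall follows from the choice of the 10, as the other eligible cells kept their own richest cells.

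Genes with lower ratios were often found in more of the members. After thinning every cell to 5000 UMIs, F3 was found in 82.9% of ZT12 members, 26.2% of the other eligible cells and 5.5% of hemidesmosome-high cells, and before thinning in 98.8%, 60.4% and 15.5%, at median depths of 43873, 28328 and 18692 UMIs. Krt23, an acidic keratin, was found in 89.0%, 38.9% and 9.3% after thinning and 93.9%, 52.5% and 18.3% before. Fam57a was found in 78.0%, 38.9% and 17.7% after thinning and 98.8%, 81.8% and 50.5% before. At ZT0 the thinned shares of members and other eligible cells were 63.2% and 18.7% for F3 and 71.1% and 29.9% for Krt23, and before thinning 84.2% and 49.9% and 78.9% and 43.2%. Hemidesmosome-high cells, where these genes should be low, thus had the lowest shares of the 3 groups.

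The genes lower in members were led by Tchh, Dcn and Krt36. Trichohyalin, Tchh, a granule protein of hair follicle and filiform papilla, was at 5.12 CPM in ZT12 members and 239 CPM in the others, 46.5 times lower (29.8 to 77.3), and the hair-type keratin Krt36 at 29.7 and 636 CPM (21.4 times, 17.8 to 26.1). Decorin, Dcn, a matrix proteoglycan best known from fibroblasts, was at 14.03 CPM in members, 366 CPM in the others and 623 CPM in hemidesmosome-high cells. Also lower were the prostaglandin-degrading enzyme Hpgd (7.82 and 100.5 CPM), the inhibitor of differentiation Id3 (16.5 and 117 CPM), the semaphorin co-receptor Plxna2 (18.3 and 114 CPM), the keratin Krt24 (136 and 615 CPM) and the cyclins Ccnd1 (56.9 and 271 CPM) and Ccnd2 (65 and 213 CPM). Ccnd1 was the exception at ZT0, with 165 CPM in members and 194 CPM in the others. The basal proteins Col17a1 (22.1 and 93.3 CPM) and Dst (56.1 and 229 CPM) were low too, but Col17a1 was part of the limit that defined eligible cells.

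**Figure D3:**
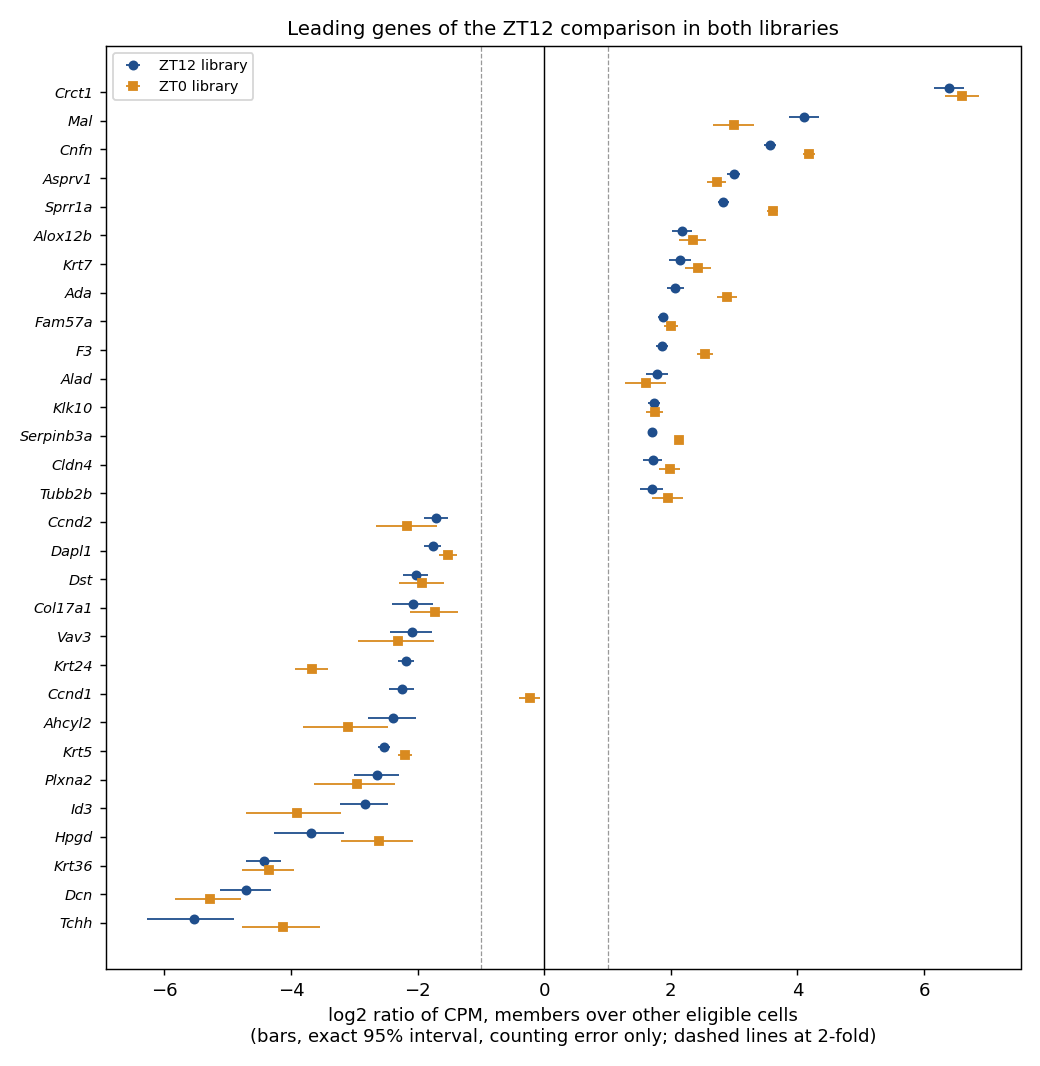
Log2 ratio of CPM, members over other eligible cells, with exact 95% intervals (counting error only), for the 15 leading genes in each direction at ZT12 (circles) and the same genes at ZT0 (squares). Signs are the same in both libraries for all 30 genes, with Ccnd1 close to 0 at ZT0.

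Promoter sequence was examined for the genes that lead the members. RefSeq windows of 250 bases before to 50 after the start site (GRCm38.p6) were matched for 12 of the 15 leading genes and for 2 of the 5 selecting genes, Tmem35a and Cpxm2. The AP-1 motif TGANTCA, bound by FOS and JUN dimers, was present on either strand in 3 leading genes, Sprr1a, F3 and Cldn4, and in 7.81% of all 32851 windows. The E-box CACGTG was present in Alad (7.15% of all windows). The octamer ATGCAAAT recognised by POU proteins (1.74%) and the retinoic acid receptor element of 2 AGGTCA copies 5 bases apart (0.00913%) were in none of the matched windows of either gene set. None of these motifs overlapped another. The 3 windows with AP-1 matches are shown because 2 matches fall in each, at first bases 146 and 116 before the start site in Sprr1a, 146 and 135 in F3, and 240 and 158 in Cldn4. Capitals mark the matches, the sequences run 5′ to 3′ on the gene's strand, and a match is only a description of these letters.
Sprr1a (chr3:92485832-92486131, minus strand): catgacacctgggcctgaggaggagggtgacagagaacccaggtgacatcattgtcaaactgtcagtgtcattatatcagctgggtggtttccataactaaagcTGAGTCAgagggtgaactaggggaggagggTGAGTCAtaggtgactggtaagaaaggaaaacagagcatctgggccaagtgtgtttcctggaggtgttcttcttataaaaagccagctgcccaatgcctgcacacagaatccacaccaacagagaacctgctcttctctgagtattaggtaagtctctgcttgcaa
F3 (chr3:121723287-121723586, plus strand): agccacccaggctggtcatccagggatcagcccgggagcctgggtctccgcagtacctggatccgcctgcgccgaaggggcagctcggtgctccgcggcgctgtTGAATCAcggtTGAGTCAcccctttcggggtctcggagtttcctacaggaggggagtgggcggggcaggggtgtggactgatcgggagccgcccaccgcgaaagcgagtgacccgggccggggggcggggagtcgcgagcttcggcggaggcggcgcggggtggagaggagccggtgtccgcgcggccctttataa
Cldn4 (chr5:134946885-134947184, minus strand): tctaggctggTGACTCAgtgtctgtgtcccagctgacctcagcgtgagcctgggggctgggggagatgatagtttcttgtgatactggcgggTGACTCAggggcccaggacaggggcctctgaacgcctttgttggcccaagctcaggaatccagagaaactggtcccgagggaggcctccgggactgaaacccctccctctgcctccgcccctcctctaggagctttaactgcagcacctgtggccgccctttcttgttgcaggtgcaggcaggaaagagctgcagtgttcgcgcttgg

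Gene lists drawn up for tongue keratinocytes put these differences in order. The lists were counted over genes of mean CPM of at least 5, where 2.68% of 8781 genes were higher in ZT12 members and 6.16% lower, with a median log2 ratio of -0.17. The cornified envelope list had 9 of 13 measured genes higher, 1 lower and a median of 1.73. Besides Crct1, Cnfn and Sprr1a, the esophagin gene Sprr3 was at 106 CPM in ZT12 members and 0.909 CPM in the others, and the plakin Ppl, which links the envelope to desmosomes, at 509.8 and 199.7 CPM. Filaggrin, Flg, was the exception, with 0 UMIs in members and 17.2 CPM in the others, at least 21.3-fold lower when 3 UMIs over the group are taken as the floor. At ZT0 the same list had 11 of 15 higher, 2 lower and a median of 1.74, where 5.66% of 9141 genes were higher and 12.8% lower, with a median of -0.27.

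The mucosal differentiation list had 8 of 15 genes higher, 1 lower and a median of 1.02 at ZT12, and 8 higher and 0 lower at ZT0. Krtdap, a secreted keratinocyte protein, was at 3631 and 1297 CPM, the phospholipid-binding Anxa1 at 1047 and 457 CPM, and the desmocollin Dsc2 at 1001 and 480 CPM. Krt6a alone was lower, at 2634 and 8113 CPM. Protease inhibitors had 7 of 14 higher and 1 lower, among them the serpins Serpinb1a (218 and 76.7 CPM), Serpinb2 (139 and 52.7 CPM) and Serpinb12 (783 and 291 CPM). The lipid barrier list had 6 of 24 higher, with the fatty-acid elongase Elovl4 at 222 and 104 CPM, and 1 lower, Sptssb, a small subunit of the enzyme that starts sphingolipid synthesis, at 58.8 and 146 CPM. In the junction list 3 of 23 genes were higher and 2 lower, and the desmocollins parted, since Dsc3, typical of lower layers, was at 216 and 537 CPM while Dsc2 was higher.

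Genes of the pathways of the selecting genes were counted without these. Of 15 measured retinoid genes, 0 were higher in ZT12 members and 2 lower, against 2.68% and 6.16% of all genes, with a median of 0.24 against -0.17 over all genes. The related carrier Crabp1 was lower, at 10.8 CPM in members and 50.3 CPM in the others. The retinol dehydrogenase Rdh12, at 219 and 111 CPM, and its relative Sdr16c6, at 58.8 and 31.9 CPM, fell just short of 2-fold. At ZT0 8 of 17 retinoid genes were higher and 3 lower. Of 10 steroid genes other than Hsd17b2, 2 were higher at ZT12, the cholesterol sulphotransferase Sult2b1, at 477 and 194 CPM, and Akr1c18, of whose 50 UMIs in ZT12 members 46 lay in the 2 Krt4/Krt13-poor cells. Among 3 carboxypeptidases Cpe was higher, at 55.3 and 19.5 CPM, and Cpn1 lower, at 8.90 and 27.8 CPM.

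Transcription factors of keratinocytes were mostly level, with 2 of 26 higher and 3 lower and a median of -0.05, which turned to 0.13 under TMM. The homeobox gene Nkx2-3 was at 155 CPM in ZT12 members and 57.8 CPM in the others and the grainyhead factor Grhl1 at 191 and 92.3 CPM, whereas Pax9, an oral patterning factor (136 and 303 CPM), Tfap2c (25.1 and 60.6 CPM) and Grhl2 (19.96 and 44.4 CPM) were lower. In the Notch list 0 of 7 genes passed in either direction. The Wnt list had 0 of 9 higher and 5 lower, led by the effector Lef1 at 0.270 and 45.6 CPM, while the ligand Wnt4 stood at 572 and 335 CPM. That median of -1.02 became -0.18 when Crabp2 was left out of the selecting value.

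The neighbours of Tmem35a in function, nicotinic receptors and their Ly6 relatives, had 1 of 6 genes higher, Ly6g6c, at 425 CPM in ZT12 members and 179 CPM in the others, and 2 lower, the secreted receptor modulators Slurp1 (10.2 and 36.1 CPM) and Slurp2 (1.08 and 9.21 CPM). Among S100 genes 4 of 11 were higher, S100a10 (579 and 261 CPM), S100a1 (59.3 and 28.2 CPM) and the S100a8 and S100a9 of a single cell. In the NRF2 list 3 of 16 were higher, with the aldehyde dehydrogenase Aldh3a1 at 1406 and 655 CPM and malic enzyme, Me1, at 194 and 80.8 CPM, and 3 lower, with Gclc, which starts glutathione synthesis, at 45.6 and 93.9 CPM. Among 9 EGFR family genes the ligand Areg was higher, at 17.8 and 1.86 CPM, and the ligand Nrg1 lower, at 0.270 and 19.1 CPM. The stress keratins Krt6a, Krt16 (644 and 1436 CPM) and Krt17 (294 and 742 CPM) were lower and Krt6b, at 757 and 429 CPM, fell short of 2-fold. This held only in part with Krt4/Krt13-rich cells on both sides, where 1 of 4 stress keratins was higher and 1 lower, with a median of 0.66.

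The dissociation-sensitive immediate early list had 0 of 13 genes higher and 2 lower in ZT12 members, with a median of -0.36, and 0 in either direction at ZT0. Fos was at 561 CPM in ZT12 members and 629 CPM in the others, and Jun at 633 and 664 CPM. Glucocorticoid targets had 0 of 8 higher and 2 lower, Klf9 (9.17 and 48.5 CPM) and Sgk1 (69.3 and 156 CPM). These responses were thus not higher in ZT12 members than in the other cells.

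Lists of other layers and cell types were low in ZT12 members. The basal list had 0 of 10 genes higher and 6 lower, with a median of -1.29, and the filiform keratins 0 of 4 higher and 4 lower, with a median of -3.81. Krt76, a keratin of hard palate and tongue, was at 1.62 CPM in members and 363 CPM in the others. Of 5 measured proliferation genes 0 were higher and 2 lower, and of 3 taste cell genes 0 were higher and 2 lower. In the ductal list 1 of 4 was higher, Krt7, and 3 were lower, the antimicrobial genes Ltf and Wfdc18 and the WAP gene Wfdc2. At ZT0, where the Krt4/Krt13-poor members described later were 12 of 38, the ductal list had 2 of 4 higher and 1 lower and the taste list 1 of 3 higher and 0 lower.

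**Figure D4:**
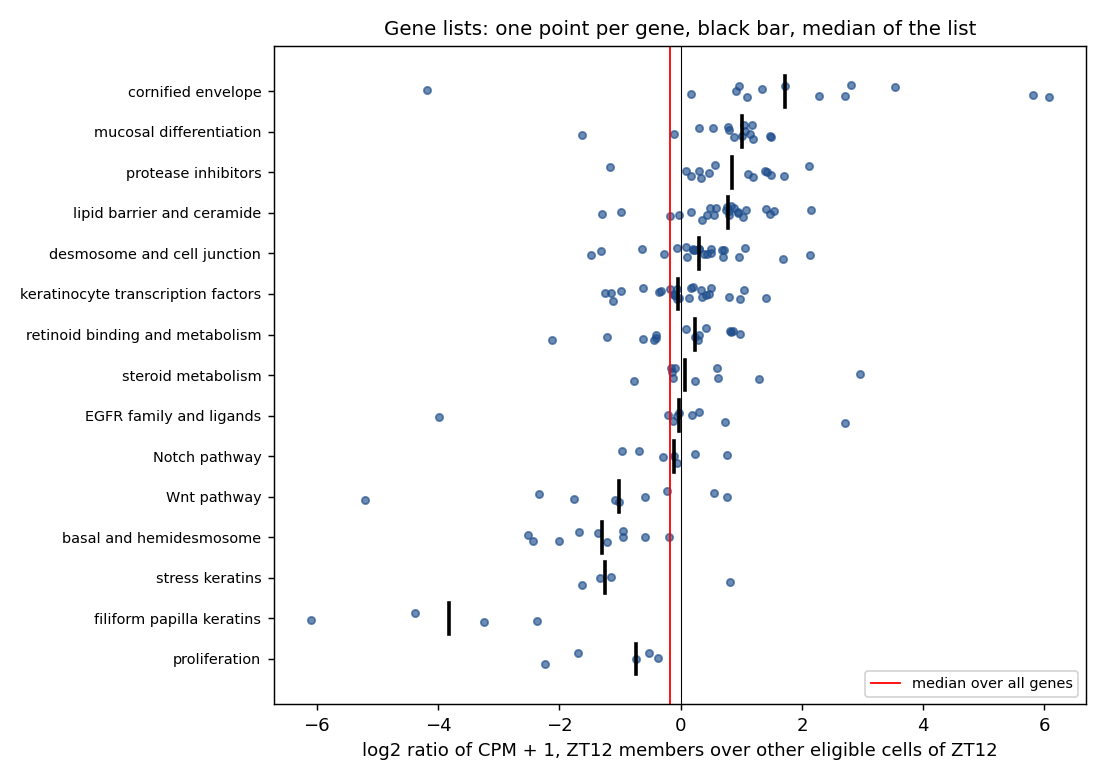
Log2 ratio of CPM plus 1, ZT12 members over other eligible ZT12 cells, one point per gene of mean CPM of at least 5 in 15 lists (selecting genes left out), with a black bar at each list's median and a red line at the median over all genes of -0.17. The cornified envelope list has a median of 1.73 with Flg far to the left, and the filiform list a median of -3.81.

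Some genes followed the selecting value in the ZT12 library. In the ZT12 library Krt4 had 45326, 40766 and 38070 CPM in members of the top, middle and bottom 40 ranks over both libraries, then 34926 CPM in the next 120 cells, 28033 CPM in the 240 after these and 11002 CPM in the rest. Ppl followed the same order, with 627, 474, 430, 351, 267 and 175 CPM. Asprv1 was concentrated at the top, with 716, 152, 209, 136, 59.2 and 34.2 CPM, and Krt5 was lowest in the 3 member tiers, with 238, 258 and 215 CPM against 375, 686 and 1568 CPM. Krt13 did not follow it within members, with 55155, 58883 and 51556 CPM in the 3 tiers. At ZT0 Krt4 was not ordered either, with 46114, 42940 and 45863 CPM in members and 28959, 31317 and 7936 CPM outside them. The ZT0 member tiers include the 12 Krt4/Krt13-poor cells, and Krt14 in these tiers was at 10778, 3449 and 3414 CPM. Krt4 in tiers of rich ZT0 members alone is not given. The grading was thus seen at ZT12 and for part of the genes.

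Members also resembled each other in genes the rule did not use. With the selecting genes and the clock, immediate early, mitochondrial, ribosomal and sex-linked genes removed, 44.1% of the 15 nearest cells of a ZT12 member in its own library were members, where members were 5.28% of eligible cells. For the other ZT12 cells the figure was 2.54%. At ZT0 it was 46.1% for members and 2.22% for the others, where members were 4.08% of eligible cells. With 30 neighbours the figure for members was 41.2% at ZT12 and 34.7% at ZT0. The ZT0 figures pool the 12 Krt4/Krt13-poor and the 26 rich members. As genes correlated with the selecting genes remain in this space, the figures describe the members and do not test them.

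Neighbouring differentiated states were set beside the members, each taken as the 120 eligible cells highest in its own genes. The state high in Krt76 shared 0 cells with the members and that high in Slc7a11, Sptssb and Arg2 shared 2, but the state high in Serpinb12, Crct1 and Cnfn shared 28 (23.3% of each set). Against the 76 ZT12 cells of the Krt76 state, members had 88 of 2600 genes higher (3.38%) and 115 lower (4.42%). Krt4 was at 41356 CPM in members and 2717 CPM in that state, and Ada at 169 and 11.9 CPM, while Krt76, Tchh (5.12 and 3137 CPM) and Lef1 (0.270 and 118 CPM) were lower.

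Against the 82 ZT12 cells of the Slc7a11 state, 114 of 2567 genes were higher in members (4.44%) and 59 lower (2.3%). Sprr1a was at 477 CPM in members and 7.36 CPM in that state, Cldn4 at 137 and 6.13 CPM, and Ndufa4l2, a mitochondrial protein known from hypoxia, at 978 and 77.9 CPM. The arginase gene Arg2 (4.05 and 117 CPM) and Crabp1 (10.8 and 105.5 CPM) were lower in members. The genes used to choose a state differ from members by that choice.

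The late cornifying state high in Serpinb12, Crct1 and Cnfn was the nearest. With shared cells left out of both sides, 48 of 2493 genes were higher in the remaining 66 ZT12 members (1.93%) and 53 lower (2.13%) than in its 50 ZT12 cells. Members were higher in S100a10 (569 and 78.2 CPM) and S100a6 (1058 and 148 CPM), calcium-binding proteins, in the surface protein Ly6a (255 and 43.1 CPM), in Krt7 (119 and 25.9 CPM) and in the interferon-induced membrane protein Ifitm3 (121 and 9.17 CPM). They were lower in the oxidase gene Aox4 (27.3 and 192 CPM), Krt36 (26.3 and 641 CPM), the chaperone clusterin, Clu (32.1 and 198 CPM), and Krt6b (375 and 2021 CPM). Krt4 was at 41356 CPM in all 82 ZT12 members and 43646 CPM in all 66 ZT12 cells of that state, shared cells included. Over these same cells most of the leading genes examined were about level or higher in that state. Among them were Sprr1a (477 CPM in members and 545 CPM in the state), Mal (100.1 and 102 CPM), Alox12b (122 and 181 CPM) and Ada (169 and 187 CPM). So were F3 (325 and 417 CPM), Fam57a (468 and 464 CPM), Cldn4 (137 and 148 CPM) and Serpinb3a (1598 and 3377 CPM). Crct1 (327 and 415 CPM) and Cnfn (520.3 and 863 CPM) were higher in that state too, which was chosen on them. Klk10 (318 and 238 CPM) and Krt7 (99.5 and 27.0 CPM) were higher in members, and Asprv1 (359 and 313 CPM) only slightly so. The 10 ZT12 members with the most UMIs of each gene held 54.1% of the Asprv1 and 58.5% of the Klk10 UMIs. Most of the leading genes examined were thus not particular to the members.

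The 12 Krt4/Krt13-poor ZT0 members were a different kind of cell from the other 26. Set against these, 334 of 2647 genes were higher in poor members (12.6%) and 174 lower (6.57%), at median depths of 30852 and 50178 UMIs. The median log2 ratio of all genes was 0.36. Among the selecting genes Crabp2 was at 979 CPM in poor and 687 CPM in rich members, Pou3f1 at 105 and 47.4 CPM, Hsd17b2 at 71.2 and 55.8 CPM, and Cpxm2 at 54.1 and 130 CPM. Tmem35a had 0 UMIs in the poor members and 33.5 CPM in the rich ones. The poor members were thus chosen mainly through Crabp2.

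Their keratins were Krt14 (27667 CPM in poor and 170 CPM in rich members), Krt79 (3165 and 9.76 CPM), which marks follicle and gland ducts in mouse skin, the stress keratin Krt17 (2317 and 9.06 CPM) and Krt6a (10225 and 3235 CPM). Krt7 was at 529 and 40.4 CPM and Krt8 at 248 and 0.697 CPM. Krt1, at 1329 and 2.79 CPM, rested on a single cell with 449 of the 471 UMIs in ZT0 members. Stra6, the receptor that takes up retinol from the blood carrier, was found in 91.7% of poor members at 364 CPM and had 0 UMIs in the rich ones, at least 174-fold higher. In all, 6 of 18 retinoid genes were higher in poor members and 2 lower, where 16.4% of all genes were higher and 5.3% lower.

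The progestin-metabolising enzyme Akr1c18 was at 1005 CPM in poor and 0.697 CPM in rich members, and the transcription factor Runx1 at 316 CPM against 0 UMIs, at least 151-fold higher. The ductal list had 4 of 4 genes higher, with Ltf at 418 CPM and Wfdc18 at 1224 CPM in poor members, against 0 UMIs of Ltf and 3.49 CPM of Wfdc18 in rich ones. Envelope genes were split. Sprr1a was at 2974 and 586 CPM, Cnfn was alike at 939 and 1062 CPM, and the transglutaminase Tgm1 at 341 and 364 CPM. Tgm3, Serpinb3a, Serpinb12 and Crct1 had 0 UMIs in poor members, at least 259-fold, 321-fold, 229.5-fold and 59.7-fold lower. Of 16 interferon genes 0 were higher in poor members and 6 lower. Against the 299 other eligible ZT0 cells below the same Krt4 and Krt13 limit, 322 of 2938 genes were higher in poor members (11%) and 244 lower (8.3%). Krt79 was at 3165 CPM in poor members and 57.7 CPM in those cells and Akr1c18 at 1005 and 26.02 CPM, while Krt15, a keratin of basal and stem cells, was at 17.1 and 3525 CPM. Poor members thus differed from these cells as well as from rich members. The data do not bear out the name of Krt4 and Krt13 differentiated keratinocyte for these 14 cells, and none other is given.

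Results for ZT12 hardly rested on them. The 80 rich ZT12 members had 80 of 2634 genes higher than the other eligible cells (3.04%) and 66 lower (2.51%). The 26 rich ZT0 members had 193 of 2569 higher (7.51%) and 200 lower (7.79%). With only the 80 Krt4/Krt13-rich ZT12 members against the 1179 other ZT12 cells above the same limit, 82 of 2615 genes were higher (3.14%) and 42 lower (1.61%). Krt4 and Krt13 still differed, with medians of 955 UMIs per 10000 in these members and 457 in the others. Crct1 was then at 332 CPM in members and 2.93 CPM in the others, Cnfn at 525 and 31.8 CPM, F3 at 329 and 87.6 CPM, and Krt5 at 239 and 1257 CPM. The cornified envelope list had 11 of 13 higher and 1 lower, with a median of 1.79, where 2.82% of all genes were higher and 5.14% lower. Krt36 and Tchh were no longer among the 15 most lowered genes, and the filiform list had 0 of 3 higher and 1 lower. The stress keratin list had 1 of 4 higher and 1 lower, with a median of 0.66, where it was -1.24 against all other eligible cells. Krt6a stayed lower, at 2467 and 7089 CPM.

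Between the libraries, members differed in interferon, antigen presentation, clock and immediate early genes, among others. Of 2516 genes, 22 were higher in ZT12 than in ZT0 members (0.874%) and 79 lower (3.14%). The 79 became 34 when Crabp2 was left out of the selecting value, and the 22 became 9 with 240 members. With Krt4/Krt13-rich members only, 30 of 2466 were higher (1.22%) and 71 lower (2.88%). The other eligible cells, from the same 2 libraries, had 6 of 2735 higher (0.219%) and 26 lower (0.951%). Counts over more cells and over fewer cells are not alike in precision, and library and time cannot be told apart.

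Clock output genes known to peak in the evening were high in ZT12 members. Dbp, a transcription factor driven by the clock, had 404 UMIs in ZT12 members and 1 in ZT0 members, 109 and 0.560 CPM, a ratio of 195 (34.7 to 7706). It was found in 96.3% of ZT12 and 2.6% of ZT0 members. Its relative Tef was at 50.2 and 3.92 CPM (12.8 times, 6.09 to 32.3), the period gene Per3 at 62.0 and 6.16 CPM, and the repressors Nr1d1 and Nr1d2 at 25.9 and 5.04 CPM and at 25.1 and 2.80 CPM. All 5 genes of the evening list passed 2-fold, with a median of 3.14, as did all 5 in the other eligible cells, with a median of 2.86. Arntl, which encodes the activator BMAL1, had 3 UMIs in ZT12 members and 16 in ZT0 members, 11.1 times lower at ZT12 (3.17 to 59.3). Clock (60.4 and 81.2 CPM) and Cry1 (14.3 and 25.2 CPM) did not pass 2-fold, and Npas2 had 0 UMIs at ZT12 and 5 at ZT0.

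Interferon-induced genes were low in ZT12 members. In that list 0 of 16 measured genes were higher and 15 lower, with a median of -4.14, where 2.18% of 8531 genes were higher and 4.93% lower. Isg15, a ubiquitin-like antiviral protein, was at 11.6 CPM in ZT12 and 474 CPM in ZT0 members, 40.8 times lower (30.1 to 56.9), Ifi27l2a at 52.1 and 1422 CPM, the antiviral Ifit1 at 0.809 and 209 CPM and Oasl2 at 5.40 and 146 CPM. Isg15 ran at 0, 0 and 1.51 UMIs per 10000 in the lowest, median and highest ZT12 member and at 0, 2.62 and 34.0 in the ZT0 members. Ifi27l2a ran at 0, 0 and 15.5 in ZT12 and at 0.062, 14.4 and 50.4 in ZT0 members, so most ZT0 members lay above most ZT12 members while the ranges overlapped. Antigen presentation had 0 of 12 higher and 12 lower, with the MHC class I light chain B2m at 53.1 and 890 CPM. The other eligible cells, which come from the same libraries, had 12 of 13 interferon genes lower at ZT12, where 0.27% of 9257 genes were higher and 2.87% lower, with a median of -3.26 and B2m at 26.2 and 339 CPM. At ZT0 itself, 15 of 16 interferon genes were higher in members than in the other cells, with Isg15 at 474 and 72.0 CPM. In that comparison 5.66% of 9141 genes were higher and 12.8% lower. In ZT12 cells the same comparison had 3 of 6 higher, where 2.68% of 8781 genes were higher and 6.16% lower.

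**Figure D5:**
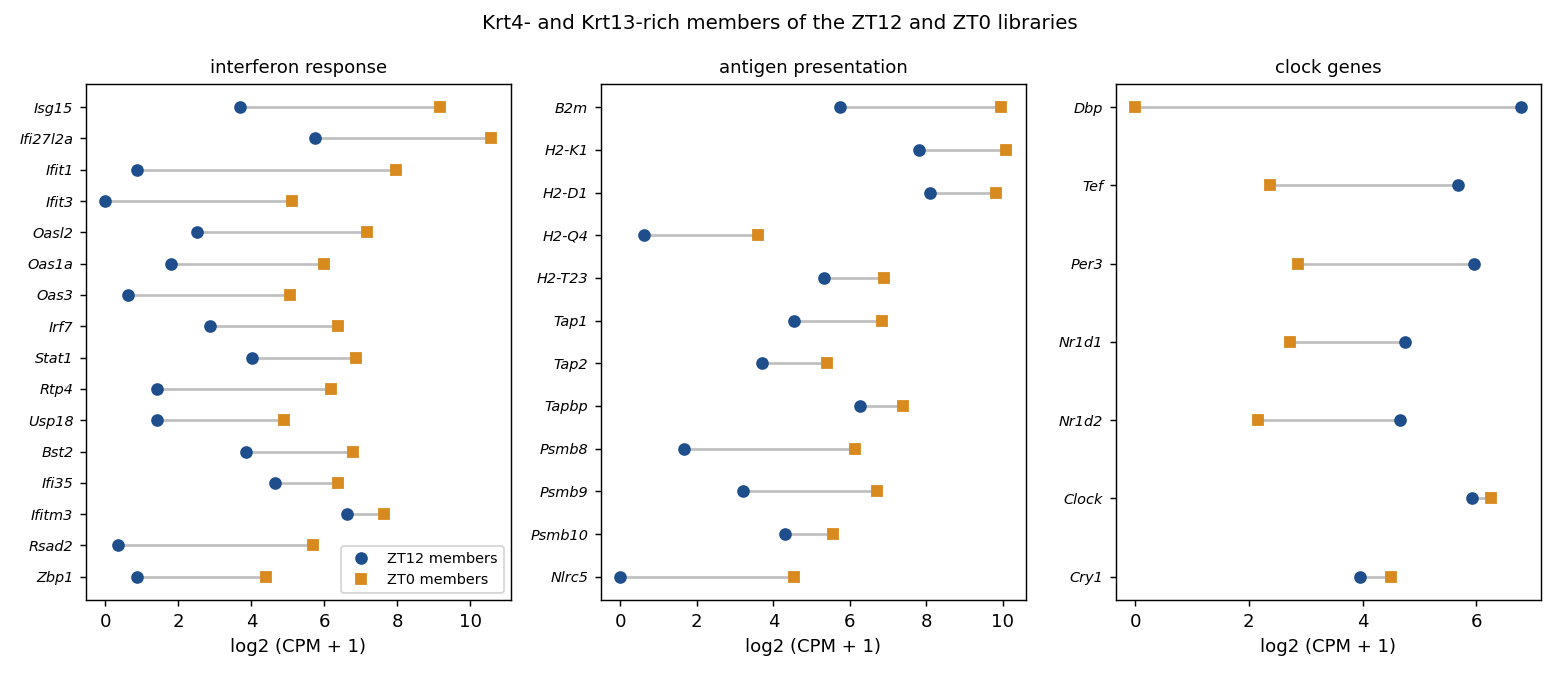
Log2 of CPM plus 1 in Krt4/Krt13-rich members of ZT12 (circles) and ZT0 (squares) for interferon, antigen presentation and clock genes, a grey line joining the 2 values of a gene. All 16 interferon and 12 antigen presentation genes lie lower at ZT12, and the 5 evening genes lie higher.

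The dissociation-sensitive immediate early list had 0 of 13 genes higher and 6 lower in ZT12 than in ZT0 members, with a median of -0.998. In rich members alone 0 were higher and 5 lower, with a median of -0.90, where 4.15% of all genes were higher and 3.45% lower, and in the other eligible cells 0 passed in either direction, with a median of -0.28. Among rich members the RNA-binding Zfp36 was at 211 CPM at ZT12 and 582 CPM at ZT0 and the transcription factor Egr1 at 226 and 503 CPM. The part of these genes in the other differences was not tested. Of 18 retinoid genes 1 was higher and 6 lower in ZT12 members, or 2 and 1 of 13 in rich members alone.

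Of the other leading genes between the times, some rested on few cells or on the Krt4/Krt13-poor members. The lipoxygenase Alox15, at 3.51 CPM in ZT12 and 109 CPM in ZT0 members, did not, since in rich members it was at 3.56 and 132 CPM and was found in 10.0% of them at ZT12 and 76.9% at ZT0. Loricrin, Lor, the main envelope protein of skin, was at 56.4 and 771 CPM, with 587 of 1377 ZT0 UMIs in 1 cell, and Akr1c18 at 13.5 and 198 CPM, but at 1.09 and 0.697 CPM in rich members alone. Among genes higher at ZT12, Krt16 (644 and 142 CPM) had 946 of 2387 UMIs in 1 cell and Krt10 (93.9 and 21.3 CPM) had 267 of 348 in 1 cell. The growth factor binding protein Igfbp2 was at 218 CPM in ZT12 and 60.5 CPM in ZT0 members, and at 220 and 64.1 CPM in rich ones, and the deubiquitinase Usp2, a clock output in liver, at 80.9 and 33.0 CPM. In the other eligible cells Igfbp2 was at 518 CPM at ZT12 and 724 CPM at ZT0, while Usp2 was at 86.8 and 30.2 CPM.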

How the data were processed

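The deposited values were raw UMI counts per gene and barcode, 32285 genes in each library, used without correction for free RNA. The tool and build given in the submitters' processing notes were Cell Ranger 2.1.1 with mm10, while per the file headers the matrices were written by Cell Ranger 4.0.0. Gene positions were taken from GENCODE M21 (32158 identifiers found). No doublet caller was run on these cells, and an alternative left out the top 5% of cells by UMIs.

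The members, the gene lists and the comparisons were chosen with earlier results of these data known. UMIs were summed over cells and scaled to CPM. Log2 ratios used CPM plus 1, ratios carry exact conditional binomial 95% intervals and shares exact Clopper-Pearson intervals, all for counting error only. Each time had 1 library, so no test was made. Shares of cells were also taken after thinning each cell to 5000 UMIs. A group with 0 UMIs was set to a floor of 3 counts over the group.

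Genes were named by rule: the 5 selecting genes and S100a8; the 15 largest log2 ratios each way among genes of mean CPM of at least 50, found in at least 30% of cells of the higher group, with an interval that left out 1; up to 4 genes per list of mean CPM of at least 20; the 8 largest each way between times; and the clock genes. Genes named outside it, among them those of the Krt4/Krt13-poor cells, were chosen after their values were seen. Some genes are not reported here. Neighbours came from 30 principal components of 2000 variable genes (scanpy 1.11.5). TMM came from edgeR 4.0.16. The size rule was tested on simulated data. Alternatives varied the number of members, the filters, each selecting gene, the scaling, the pseudocount, the minimum CPM, the comparison cells and the neighbour settings.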

Additional observations from a re-analysis of the deposited data

Results flagged for a closer look

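For 3 genes, members differed from the other eligible cells in opposite directions in the 2 libraries, and the difference between the libraries was not tested. Wfdc18, a secreted WAP protein, had log2 ratios of -4.22 at ZT12 (1.89 CPM in members, 53.0 CPM in the others) and 3.56 at ZT0 (244 CPM in members, 19.8 CPM in the others), with 430 of 435 UMIs of ZT0 members in Krt4/Krt13-poor ones. The simple-epithelial keratin Krt8, chosen after its values were seen, had -3.14 at ZT12 (0.539 and 12.6 CPM) and 1.82 at ZT0 (49.3 and 13.2 CPM), with 87 of 88 UMIs in the same Krt4/Krt13-poor cells. The defensin gene Defb4, likewise chosen after its values were seen, had -1.49 at ZT12 (9.71 and 29.0 CPM) and 1.76 at ZT0 (167 and 48.7 CPM). Its 299 UMIs at ZT0 lay in 5 members, 0 of them in Krt4/Krt13-poor ones.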

How the results depend on the processing

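Leaving Crabp2 out of the selecting value kept 58 of the 120 members, against 104 to 114 for each other gene. The share ratio of ZT12 to ZT0 then went to 2.997 from 1.29, the ZT12 counts of higher genes to 28 from 84, the ZT0 counts to 65 higher and 79 lower from 176 and 152, the count lower at ZT12 than at ZT0 to 34 from 79, and the lists with a median of at least 1 in size to 5 from 10 (6 with a pseudocount of 10 CPM and 6 over genes of mean CPM of at least 50). S100a8 reversed from a log2 ratio of 5.59 to -2.886 without Crabp2 and to -0.54 without the top 5% of cells by UMIs, which also gave 45 higher genes at ZT12. With 240 members, 53 genes were higher at ZT12 and 9 higher at ZT12 than at ZT0. Without the hemidesmosome limit, which kept all 120 members, ZT12 had 139 higher and 139 lower and ZT0 234 lower, and all other quality-filtered cells as the comparison also gave 139 and 139. TMM gave 41 lower at ZT12, and 268 higher and 93 lower at ZT0. Leaving out the 10 members richest in envelope genes, chosen after seeing the data, gave 55 higher at ZT12. A minimum of 20 CPM gave 142 higher and 179 lower at ZT12, 320 and 433 at ZT0, and 58 and 173 between times, and no minimum gave 321 and 1236, 728 and 1831, and 268 and 616. The cause was not tested where it does not follow from the number of genes or cells counted. Other main values, 157 of 189, stayed within their limits. Among the values of single genes and list medians, 1041 stayed within their limits, 390 moved outside them and 2, both of S100a8, reversed. No paired analysis was possible because each time had 1 library and the results come from no test. Depth limits genes near 3 UMIs per group.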
